A study of Homo sapiens with 12 samples.

Results

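The genes described here encode the proteins of the spliceosome's core particles. The members are the 52 genes, of 19460 with RNA values, whose symbols in the authors' table begin with SNRNP, SNRPA to SNRPG, SF3A, SF3B, PRPF or LSM and end in their subunit number or letter, together with U2AF1 and U2AF2. Every one of the 52 passed the filter on low values (a mean of at least 0.5 FPKM), and 51 had a mean of at least 5 FPKM (a level corrected for transcript length and library size). The series treated T-47D, a long-established human line of oestrogen receptor positive breast cancer cells, with palbociclib, an inhibitor of the cell cycle kinases CDK4 and CDK6. Palbociclib was given at 1 µM for 24 h, and the control cells received its solvent DMSO for the same time (0.1% in the ATAC controls). Poly(A) RNA and accessible chromatin (ATAC-seq, which cuts open DNA with the transposase Tn5) were each sequenced from 3 biological replicates per treatment, so 6 libraries per assay. All of it comes from 1 cell line at 1 dose and 1 time.

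The spliceosome removes introns from newly made RNA and is rebuilt on every intron from small nuclear ribonucleoproteins (snRNPs), each of which holds a short RNA and a set of proteins. A ring of Sm proteins is loaded onto the RNAs of U1, U2, U4 and U5, while U6 carries a ring of related LSm proteins. U1 recognises the start of an intron, U2 with the SF3A and SF3B proteins binds the branch site near its end, and the U4/U6 and U5 particles join as a tri-snRNP that is then remodelled into the active enzyme. Some of these genes are known to control the splicing of their own transcripts.

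The RNA libraries resembled each other closely within a treatment, with a lowest Pearson r of 0.995 across genes on log2(FPKM + 1) within groups against a highest of 0.971 between groups. Of 11 luminal breast markers listed for the cell type, all 11 were present, and their summed level ran from 5685 to 6219 FPKM in DMSO and from 7627 to 8418 FPKM with palbociclib. Marker genes of other cell types were low: TP63 averaged 0.0772 FPKM and CD14 averaged 0.264 FPKM, and of 3 fibroblast genes COL1A1 alone stood higher, at 24.4 FPKM. The 4 cell cycle genes used as a check of the drug (E2F1, MKI67, RRM2 and CCNE2) summed to between 195.9 and 202.8 FPKM in DMSO and to between 8.06 and 8.20 FPKM with palbociclib. Of the luminal markers 9 were higher with palbociclib, while EPCAM (-0.14, adjusted p = 0.0544) and TFF1 (0.24, adjusted p = 0.212) did not pass the test, and all 4 cell cycle genes were lower. The part of these shifts in the members' changes was not tested. In bulk RNA, fewer cells of one kind and less RNA per cell cannot be told apart.

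RNA for most of the core spliceosome proteins was lower with palbociclib, by modest amounts. Of the 52 members, 34 were lower, 3 were higher and 15 did not pass the test, at a limma adjusted p under 0.05 over all genes. Among all 15869 genes tested, 22.9% were lower and 20.9% were higher. The median log2 change of the members was -0.25, beside 0.0023 over all genes tested. Of the 52, 43 lay below 0 (82.7%, beside 49.6% of all genes tested). On the log2 scale 9 members were called lower by at least 0.5 and 0 by at least 1. Among all 15869 genes tested, 1222 and 482 were called lower by as much. The palbociclib and DMSO libraries did not overlap in 37 members that were lower and in 5 that were higher, where 28.2% and 26.5% of all genes tested did so. Each palbociclib library showed the shift, with a median log2 change of the members of -0.23, -0.22 and -0.29 against the DMSO mean, while the medians over all genes in the same 3 libraries lay between -0.0021 and 0.0034. All log2 changes of RNA here are palbociclib over DMSO on log2(FPKM + 1), which understates the change of low genes. The authors' deposited table, made with DESeq2, calls 33 members lower and 3 higher, where it calls 20.3% of its 19080 genes with an adjusted p lower and 17.9% higher. Of the members, 36 have the same call in both analyses, and LSM7 is called here alone (adjusted p = 0.180 in the authors' deposited table).

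**Figure D1:**
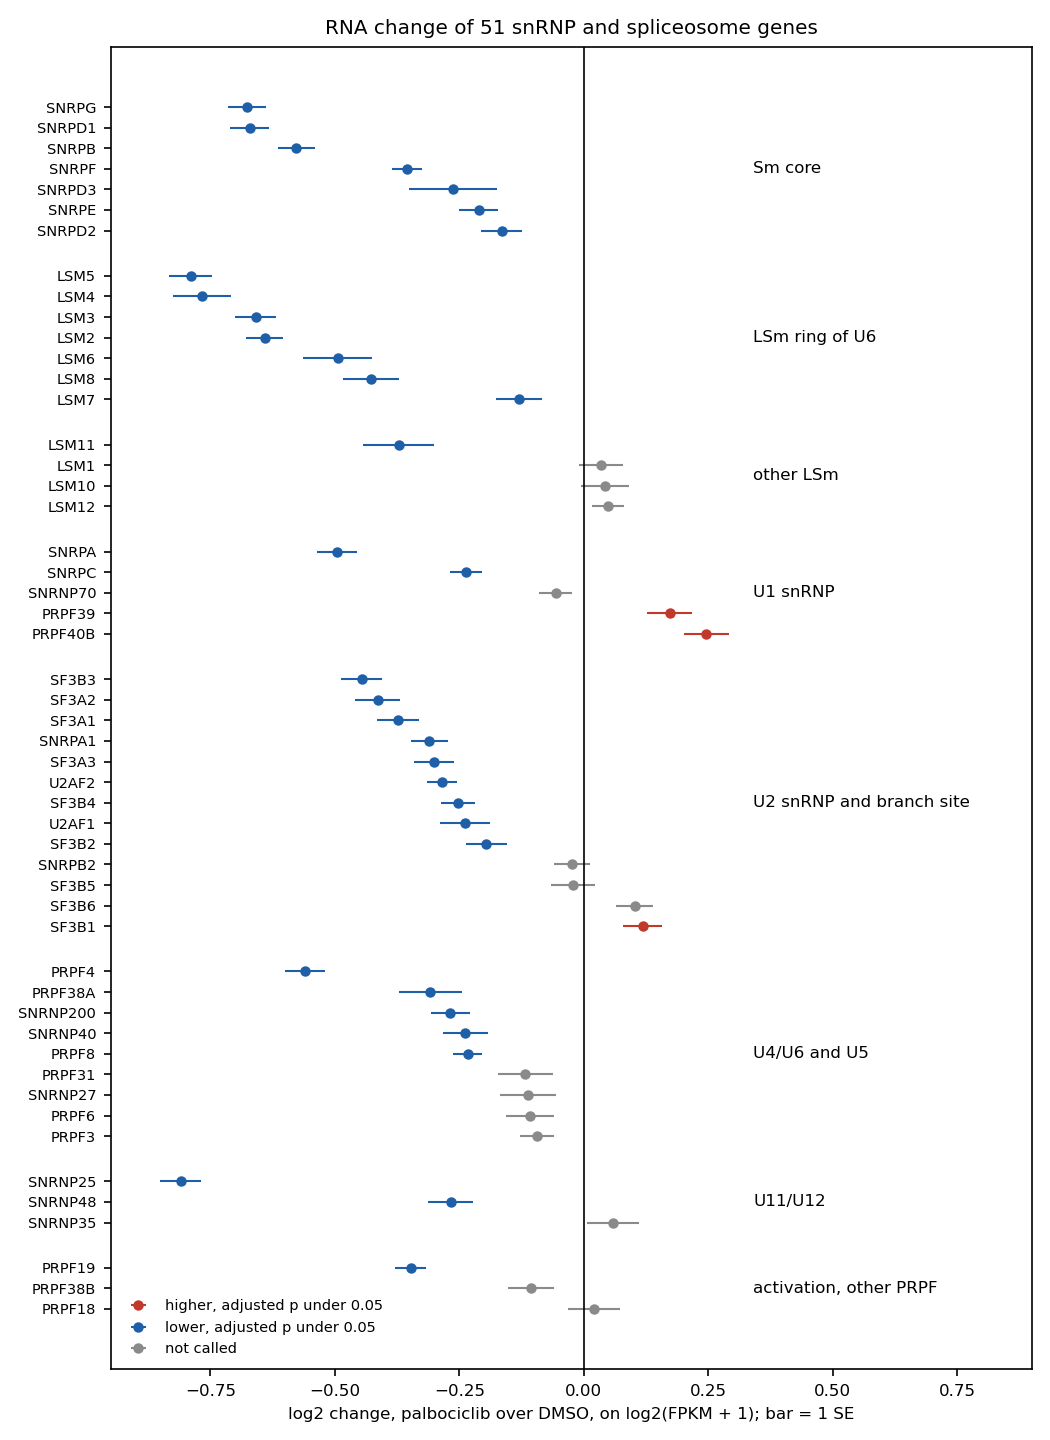
Log2 change in RNA (x axis, palbociclib over DMSO on log2(FPKM + 1)) of 51 of the 52 members (y axis), grouped by the particle they belong to, with bars of 1 standard error. The 34 blue points are the members called lower, the 3 red points (PRPF40B, PRPF39 and SF3B1) those called higher, and both rings lie wholly on the lower side.

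The Sm ring, which is shared by most snRNPs, fell in all 7 of its genes, with a median log2 change of -0.35. SNRPG (ENSG00000143977, chr2:70281362-70293740 on GRCh38) stood at 159, 163 and 171 FPKM in the DMSO libraries and at 105, 104 and 98.5 FPKM with palbociclib. Its log2 change was -0.68 ± 0.039 (SE, n = 3 per group; adjusted p = 2.75e-06). SNRPD1 (ENSG00000167088, chr18:21612314-21633520) went from 62.6, 62.2 and 64.7 FPKM to 38.0, 41.3 and 38.7 FPKM, a log2 change of -0.67 ± 0.040 (adjusted p = 3.42e-06). In both genes the groups lie well apart, and the treated libraries hold about 62.3% and 62.2% of the DMSO level.

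SNRPB encodes the alternative proteins SmB and SmB′ and is known to limit its own level through the splicing of its transcript. SNRPB (ENSG00000125835, chr20:2461642-2470789) measured 199, 201 and 216 FPKM in DMSO and 136, 139.8 and 136 FPKM with palbociclib, a log2 change of -0.58 ± 0.037 (adjusted p = 5.96e-06). SNRPE (ENSG00000182004, chr1:203861599-203871152) changed less, from 207, 192 and 209.8 FPKM to 172, 179.8 and 174 FPKM (log2 change -0.21 ± 0.040, adjusted p = 0.00295). The remaining Sm genes were SNRPF at -0.35, SNRPD3 at -0.26 (-0.15 without palbociclib replicate 3) and SNRPD2 at -0.17. SNRPD3 passed narrowly (adjusted p = 0.0414), with palbociclib libraries at 70.0, 66.5 and 54.1 FPKM, and its adjusted p ran from 0.0086 to 0.108 over 13 other analyses, above 0.05 in 6 of them. It was 0.107 when DMSO replicate 1 was left out, 0.108 for DMSO replicate 3 and 0.0542 for palbociclib replicate 2.

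The Sm genes fell unequally, and their RNA levels lay further apart with palbociclib. In DMSO the order by FPKM was SNRPD2, SNRPF, SNRPB, SNRPE, SNRPG, SNRPD3 and SNRPD1, and only SNRPB and SNRPE overlapped as neighbours. With palbociclib SNRPE lay above SNRPB with no overlap between their libraries, and the other places were the same. The highest gene, SNRPD2, stood at 4.33 times the lowest, SNRPD1, in DMSO and at 6.20 times with palbociclib. Library by library, the ratio of SNRPD2 to SNRPD1 was 4.20, 4.48 and 4.31 in DMSO and 6.39, 6.20 and 6.03 with palbociclib. This pair, like the other ratios given here, was chosen after its values were seen, so no test is given.

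**Figure D2:**
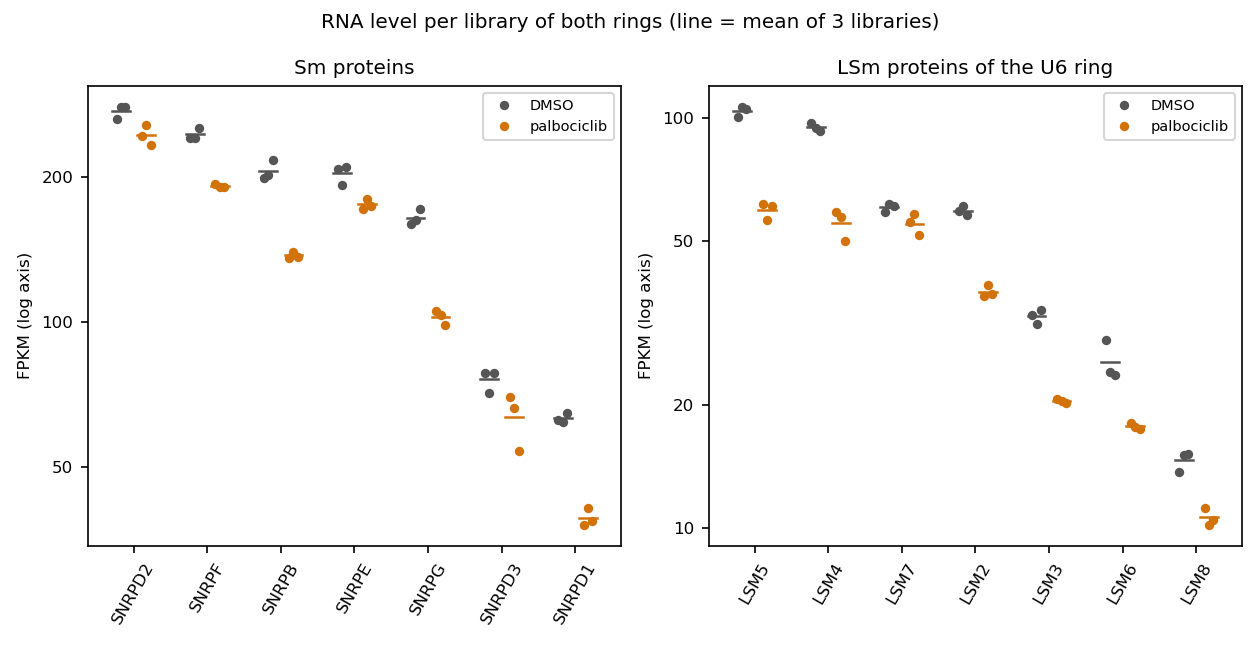
RNA level in FPKM (log axis) of the 7 Sm genes (left) and the 7 LSm genes of the U6 ring (right) in each of the 3 DMSO (grey) and 3 palbociclib (orange) libraries, with a line at each group's mean. In all 14 genes the treated libraries lie below every DMSO library, with the narrowest separation in LSM7.

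The LSm ring of U6 had the deepest median of the particles, -0.64, and all 7 of its genes were lower. LSM5 (ENSG00000106355, chr7:32485338-32495283) measured 100.1, 106 and 105 FPKM in DMSO and 61.7, 56.3 and 61.0 FPKM with palbociclib. That is a log2 change of -0.79 ± 0.043 (adjusted p = 2.12e-06). LSM4 (ENSG00000130520, chr19:18306236-18323076) went from 97.0, 94.3 and 92.9 FPKM to 58.8, 57.4 and 50.001 FPKM, with the third palbociclib library the lowest (log2 change -0.77 ± 0.058, adjusted p = 1.64e-05). Both are present in the nuclear ring and in the cytoplasmic one that takes part in removing the mRNA cap.

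LSM3 (ENSG00000170860, chr3:14178817-14201122) was at 33.1, 31.4 and 34.0 FPKM in DMSO and at 20.7, 20.5 and 20.1 FPKM with palbociclib (log2 change -0.66 ± 0.041, adjusted p = 4.61e-06). LSM2 (ENSG00000204392, chr6:31797396-31806966) was at 59.3, 60.8 and 58.0 FPKM and at 36.7, 39.2 and 37.3 FPKM (log2 change -0.64 ± 0.037, adjusted p = 2.98e-06). LSM6 changed by -0.49 and LSM8, the subunit found only in the nuclear ring, by -0.43. LSM7 changed least, from a mean of 60.5 ± 1.47 (SD) to 55.2 ± 3.27 FPKM, a log2 change of -0.13 with an adjusted p of 0.0493. Its adjusted p was above 0.05 in 9 of 13 other analyses and ran from 0.0058 to 0.136. It was 0.0618, 0.136 and 0.108 without DMSO replicates 1, 2 and 3, and 0.0906 and 0.114 without palbociclib replicates 1 and 3. Without palbociclib replicate 3 the log2 change was -0.086. In DMSO the level of LSM7 overlapped that of LSM2, and with palbociclib it overlapped that of LSM4 instead.

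Of the 4 LSm genes outside the U6 ring, 1 was lower and 3 did not pass the test. LSM1 takes the place of LSM8 in the cytoplasmic ring, and its RNA was at 27.7, 28.7 and 29.7 FPKM in DMSO and at 28.9, 30.8 and 28.6 FPKM with palbociclib, which overlap (log2 change 0.035, adjusted p = 0.558). The ratio of LSM1 to LSM8 was 2.02, 1.90 and 1.96 in DMSO and 2.58, 3.02 and 2.73 with palbociclib. LSM10 and LSM11 belong to the U7 snRNP, which cuts the ends of replication-dependent histone transcripts. LSM11 (ENSG00000155858, chr5:157743712-157760709) was low in both groups, at 2.31, 2.51 and 2.40 FPKM in DMSO and 1.76, 1.60 and 1.54 FPKM with palbociclib, and it was called lower (log2 change -0.37 ± 0.071, adjusted p = 0.00332). LSM10 stood at 0.043 (adjusted p = 0.509) and LSM12 at 0.049 (adjusted p = 0.252), although the groups of LSM12 did not overlap. With quantile normalization LSM10 (0.14, adjusted p = 0.0345) and LSM12 (0.089, adjusted p = 0.0372) passed as higher, and with the libraries scaled to the same sum of FPKM the signs of LSM1, LSM10 and LSM12 turned negative, so no direction is given for them. A row named LSM12P1, a copy of LSM12, lies in the same table, and the sharing of reads between them was not tested.

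The U1 snRNP and its partners did not move as one, with 2 of 6 genes lower, 2 higher and 2 that did not pass the test. That is 33.3% each way, beside 22.9% lower and 20.9% higher over all genes tested. SNRPA, which binds a stem of U1 RNA, was lower by a log2 change of -0.50, and SNRPC, which steadies the contact with the intron's start, by -0.24. SNRNP70 (ENSG00000104852, chr19:49085451-49108604) measured 87.4, 86.95 and 87.2 FPKM in DMSO and 85.6, 85.1 and 80.7 FPKM with palbociclib. Its groups did not overlap, yet the change of -0.057 ± 0.033 did not pass the test (adjusted p = 0.195), and it passed only with the libraries scaled to the same sum of FPKM, at -0.13 (adjusted p = 0.0081). The ratio of SNRNP70 to SNRPA lay between 1.33 and 1.35 in the DMSO libraries and between 1.81 and 1.87 with palbociclib.

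The U1 partners include 2 of the 3 members that rose. PRPF40B (ENSG00000110844, chr12:49622646-49644665), a homologue of a yeast U1 protein that bridges the ends of an intron, had 22.3, 21.9 and 20.6 FPKM in DMSO and 25.3, 26.8 and 25.4 FPKM with palbociclib (log2 change 0.25 ± 0.045, adjusted p = 0.00248). PRPF39 (ENSG00000185246, chr14:45084116-45116282), related to the yeast U1 protein Prp39, had 31.3, 30.0 and 30.2 FPKM in DMSO and 32.7, 34.4 and 36.4 FPKM with palbociclib (log2 change 0.17 ± 0.046, adjusted p = 0.0154). The call of PRPF39 was lost without DMSO replicate 2 (adjusted p = 0.0525) and with the libraries scaled to the same sum (0.186), over a range of 0.0042 to 0.186.

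At the branch site, 9 of 13 genes were lower, 1 was higher and 3 did not pass the test, with a median log2 change of -0.25. SF3A, the complex of SF3A1, SF3A2 and SF3A3, was lower in all of its genes, by -0.37, -0.41 and -0.30. In SF3B, which clamps the branch site, SF3B3 had the largest fall of the U2 group at -0.45, SF3B4 was at -0.25 and SF3B2 at -0.20, while SF3B5 (-0.022) and SF3B6 (0.10) did not pass the test. Of the proteins specific to U2, SNRPA1 was lower by -0.31 and SNRPB2 was at -0.025, which did not pass except with the libraries scaled to the same sum (-0.10, adjusted p = 0.0423). SF3B6 had groups that did not overlap and an adjusted p of 0.0516, and it passed as higher in 4 of 13 other analyses.

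SF3B1, the large subunit that holds the branch site adenosine, was the only SF3B gene called higher. SF3B1 (ENSG00000115524, chr2:197389784-197435093) measured 70.7, 69.5 and 74.4 FPKM in DMSO and 81.0, 75.7 and 76.4 FPKM with palbociclib, so the lowest treated library lay just above the highest control. The log2 change was 0.12 ± 0.040 (adjusted p = 0.0418), and it was above 0.05 in 7 of 13 other analyses, with a range from 0.0059 to 0.332. Leaving out DMSO replicate 1 or 2 gave 0.112 and 0.131, and leaving out palbociclib replicate 1, 2 or 3 gave 0.135, 0.0524 and 0.0548. SF3B3, its partner in the same complex, went from 152 ± 2.9 (SD) to 111 ± 5.56 FPKM. The ratio of SF3B1 to SF3B3 was therefore between 0.448 and 0.498 in DMSO and between 0.653 and 0.770 with palbociclib.

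Both subunits of U2AF, which reads the end of the intron, were lower. U2AF2 (ENSG00000063244, chr19:55655035-55674716), the subunit that binds the pyrimidine tract, had 81.0, 81.3 and 82.3 FPKM in DMSO and 67.5, 67.6 and 65.3 FPKM with palbociclib (log2 change -0.28 ± 0.030, adjusted p = 0.000117). U2AF1 (ENSG00000160201, chr21:43092956-43107578), which contacts the final AG of the intron, had 119, 113 and 129.96 FPKM and then 104, 99.8 and 102 FPKM (log2 change -0.24 ± 0.049, adjusted p = 0.00487). A near-identical second copy of U2AF1 exists in the human reference, and how the authors' quantification divided reads between the copies is not given in the sources used here, so its level is uncertain.

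**Figure D3:**
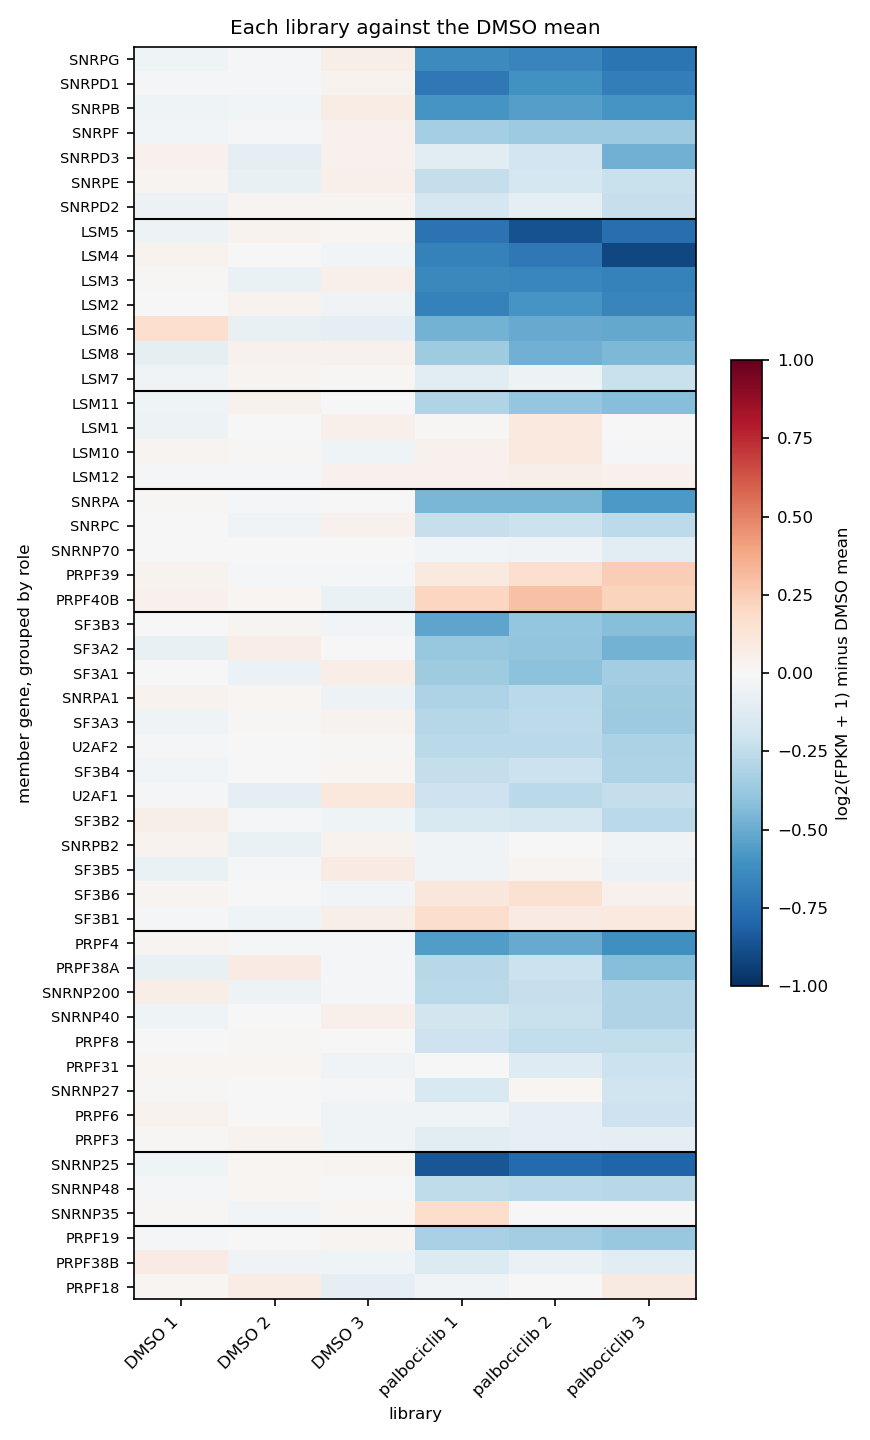
Each of the 6 RNA libraries (x axis) for 51 of the 52 members (y axis, grouped by role, black lines between groups), coloured by log2(FPKM + 1) minus the gene's DMSO mean. The 3 palbociclib columns are blue for most Sm, LSm ring, U2 and tri-snRNP genes. They are pale red for PRPF40B and PRPF39, paler for SF3B1 and the uncalled SF3B6, and close to white for genes such as PRPF18 and SNRPB2.

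In the U4/U6 and U5 particles, 5 of 9 genes were lower and 4 did not pass the test, with all 9 below 0 and a median of -0.23. PRPF8 (ENSG00000174231, chr17:1650629-1684867), the scaffold around the active site, had 67.9, 68.6 and 68.0 FPKM in DMSO and 58.8, 57.5 and 57.3 FPKM with palbociclib (log2 change -0.23 ± 0.029, adjusted p = 0.000317). SNRNP200 (ENSG00000144028, chr2:96274338-96305546), the helicase that unwinds U4 from U6, had 71.0, 65.4 and 67.2 FPKM and then 56.0, 57.8 and 54.7 FPKM (log2 change -0.27 ± 0.040, adjusted p = 0.00082). PRPF4 fell most, at -0.56, while PRPF3, its partner on U4/U6, was at -0.094 (adjusted p = 0.0587). The ratio of PRPF3 to PRPF4 was between 1.26 and 1.33 in DMSO and between 1.75 and 1.88 with palbociclib. PRPF38A was lower at -0.31 and SNRNP40 at -0.24. PRPF31, SNRNP27 and PRPF6, at -0.12, -0.11 and -0.11, did not pass. PRPF31 passed as lower without palbociclib replicate 1 (-0.17, adjusted p = 0.0228), SNRNP27 without palbociclib replicate 2 (-0.18, adjusted p = 0.0143) and PRPF3 without DMSO replicate 3 (-0.12, adjusted p = 0.0361). With the libraries scaled to the same sum of FPKM all 4 passed as lower, with adjusted p of 0.0168, 0.0315, 0.0118 and 0.0127 for PRPF31, SNRNP27, PRPF6 and PRPF3.

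The minor spliceosome, which removes a rare class of introns, has 3 members. SNRNP25 (ENSG00000161981, chr16:53828-57669) had the largest fall of all 52, from 30.0, 31.4 and 31.5 FPKM to 16.7, 17.7 and 17.4 FPKM. Its log2 change was -0.81 ± 0.040 (adjusted p = 1.17e-06), and the treated level was 55.7% of that in DMSO. SNRNP48 was lower by -0.27 and SNRNP35 stood at 0.058 (adjusted p = 0.408), so the ratio of SNRNP35 to SNRNP25 was 1.15 ± 0.043 in DMSO and 2.17 ± 0.226 with palbociclib (SD, n = 3 each). Of the members that act later, PRPF19 (ENSG00000110107, chr11:60890547-60906585), the ubiquitin ligase of the complex that activates the spliceosome, had 84.2, 85.1 and 87.1 FPKM and then 68.2, 67.1 and 65.6 FPKM (log2 change -0.35 ± 0.031, adjusted p = 4.27e-05). PRPF38B (-0.11) and the second step factor PRPF18 (0.020) did not pass the test, and PRPF38B passed as lower with the libraries scaled to the same sum (adjusted p = 0.0224).

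The rest of the pathway was followed with a list of 69 symbols, of which 68 were found, on 69 rows. Of these rows 35 were lower (50.7%), 3 were higher (4.35%) and 31 did not pass, with a median log2 change of -0.13. Among all genes tested 22.9% were lower and 20.9% higher, and the counts of each sublist are to be read beside these shares. The genes named from the sublists have a mean of at least 5 FPKM. GEMIN4 (-0.59) and ZNF473 (-0.63), also called lower, lay under that level. Among 24 other core proteins 12 were lower, led by the tri-snRNP cyclophilin PPIH (33.6 to 18.9 FPKM, log2 change -0.80), the U2 factor HTATSF1 (-0.58) and the SF3B subunit PHF5A (-0.56). Among 11 helicases and remodelling factors 7 were lower, led by DDX46, which acts at the branch site (-0.49), DDX23 (-0.32) and DDX41 (-0.26). Of 19 rows for snRNP assembly and snRNA transport, 9 were lower and 2 higher. GEMIN2, a partner of SMN in loading the Sm ring, was at -0.40, the cap binding protein NCBP1 at -0.36 and the helicase DDX20 at -0.25, while GEMIN8 (0.29) and NCBP2 (0.12) were higher.

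Of 9 genes that work with U6 or with the LSm rings, 6 were lower. SLBP, the histone stem-loop binding protein that works with the U7 particle of LSM10 and LSM11, went from 47.8 to 20.8 FPKM (log2 change -1.16), PATL1, a decapping partner of the cytoplasmic ring, changed by -0.63 and the U6 and 7SK capping enzyme MEPCE by -0.38. Of 6 minor spliceosome proteins, ZCRB1 was lower (-0.19), ZRSR2, a U2AF1 relative, was higher (0.23), and 4 did not pass. That is 16.7% each way, which is not above the shares over all genes tested (22.9% and 20.9%). The symbol SMN1 is on 2 rows of the table, neither of which passed, and reads of the near-identical SMN copies cannot be told apart here. SNRPN, the SmN gene that stands in for SNRPB in some tissues and is not matched by the symbol rule, went from 40.7, 41.6 and 39.3 FPKM to 57.7, 57.7 and 56.2 FPKM, a log2 change of 0.49. PRP4K, the kinase also named PRPF4B, is likewise outside the symbol rule and was at 34.8 ± 0.22 and 34.6 ± 0.25 FPKM (SD, n = 3 each; log2 change -0.011, adjusted p = 0.804).

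Promoter sequence was compared because most members moved together. RefSeq windows of 300 bases (250 before to 50 after the start, GRCh38.p14) were matched by symbol for 44 members, and for genes with several windows the outermost was used. Both strands were searched for TTTCCCGC and TTTGGCGC (E2F), GCATGCGC (NRF1), CCGGAAGT (ETS), AAGATGGC (YY1) and CACGTG (E box). The ETS motif was in 12 of 44 member windows, which is 27.3%, beside 4.41% of all 27305 windows and 8.94% of the 10994 windows of genes tested for RNA. Most of these were windows of the U2 and branch site genes, with 8 of 12 (66.7%). The Sm genes had it in 2 of 6 windows and the U4/U6 and U5 genes in 2 of 8. The LSm ring of U6, with the deepest fall, had it in 0 of 6, and the remaining groups had it in 0. Of the windows of members called lower, 29.0% of 31 held it, and of the other members' windows 23.1% of 13 did. Of its 12 matches, 10 lay within 120 bases before the start. An E2F motif was in 3 of 44 windows (6.82%, beside 3.75% of genes tested for RNA), in SNRPB, LSM3 and SF3B1. AAGATGGC was in 5 windows (11.4%, beside 5.45%), GCATGCGC in 3 (6.82%, beside 5.77%) and CACGTG in 2 (4.55%, beside 10.0%).

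The 100 bases before the start are shown for all 8 members with an ETS match inside them, of which SNRNP27 was not called lower, and as examples of other matches for SF3B1, which rose, and LSM7. Matches are in capitals, the sequences run 5′ to 3′ on the gene's strand, and ACTTCCGG is CCGGAAGT on the opposite strand (its reverse complement). They lie at chr20:2470790-2470889 (SNRPB, minus strand), chr22:30356895-30356994 (SF3A1, minus), chr1:37990023-37990122 (SF3A3, minus), chr11:66052264-66052363 (SF3B2, plus), chr1:149927804-149927903 (SF3B4, minus), chr19:55654935-55655034 (U2AF2, plus), chr19:2236724-2236823 (SF3A2, plus) and chr2:69893856-69893955 (SNRNP27, plus). That of SF3B1 is chr2:197435094-197435193 (minus) and that of LSM7 chr19:2328587-2328686 (minus). A match is a run of letters, not a site shown to be bound.
SNRPB: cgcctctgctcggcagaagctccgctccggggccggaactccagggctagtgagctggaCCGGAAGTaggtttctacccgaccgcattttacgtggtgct
SF3A1: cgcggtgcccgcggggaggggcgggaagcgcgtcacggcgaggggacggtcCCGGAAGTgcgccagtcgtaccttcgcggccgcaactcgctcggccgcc
SF3A3: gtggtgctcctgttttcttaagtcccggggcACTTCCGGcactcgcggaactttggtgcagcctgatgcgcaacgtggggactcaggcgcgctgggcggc
SF3B2: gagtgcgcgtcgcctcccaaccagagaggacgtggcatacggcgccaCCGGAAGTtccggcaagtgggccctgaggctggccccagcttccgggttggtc
SF3B4: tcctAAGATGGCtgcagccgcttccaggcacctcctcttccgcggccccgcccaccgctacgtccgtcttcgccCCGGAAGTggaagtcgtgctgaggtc
U2AF2: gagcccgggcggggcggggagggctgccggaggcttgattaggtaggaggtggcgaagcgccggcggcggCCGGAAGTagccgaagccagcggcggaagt
SF3A2: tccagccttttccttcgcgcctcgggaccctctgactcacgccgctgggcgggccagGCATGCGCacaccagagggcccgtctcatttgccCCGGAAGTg
SNRNP27: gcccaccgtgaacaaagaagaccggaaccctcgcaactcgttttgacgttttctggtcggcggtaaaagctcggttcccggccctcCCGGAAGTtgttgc
SF3B1: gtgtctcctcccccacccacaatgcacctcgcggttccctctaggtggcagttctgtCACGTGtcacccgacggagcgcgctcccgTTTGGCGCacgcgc
LSM7: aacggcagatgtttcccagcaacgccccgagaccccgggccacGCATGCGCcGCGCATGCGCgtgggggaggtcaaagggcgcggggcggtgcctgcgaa

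The first 8 hold the ETS motif at 9 to 69 bases before the start, SF3B4 also holds AAGATGGC and SF3A2 also GCATGCGC. The sequence of SF3B1 holds CACGTG and TTTGGCGC and no ETS match. That of LSM7 holds GCATGCGC on both strands in 3 matches, of which the last 2 overlap.

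Accessibility passed the test at the start of 1 member, SNRNP200. The 6 ATAC libraries held from 12830062 to 18250496 counts in 38121 peaks. Of 50 members with a known start, 25 had a peak within 1 kb of it and 25 had none (LSM6 and SNRNP35 lacked a strand). Of the 25 peaks, 1 was lower and 0 were higher at an edgeR adjusted p under 0.05, where 11.1% of the 6411 peaks near any gene start were lower and 1.86% higher (6.46% and 5.41% of all peaks). At an unadjusted p under 0.05 there were 6 of the 25, beside 1650 of the 6411 peaks near any gene start, and DESeq2 also called 1. The median log2 change was -0.084, beside -0.044 over all peaks near a start, and 20 of the 25 lay below 0 (80.0%, beside 66.0%). Groups did not overlap in 7 of the 25, where 29.6% of the peaks near starts did so.

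The called peak lay over the start of SNRNP200 (chr2:96305104-96306059), whose RNA was also lower. Its CPM (counts scaled to library size) were 51.7, 49.5 and 52.4 in DMSO and 41.1, 38.8 and 41.5 with palbociclib, so the groups lay well apart. The log2 change was -0.34 (adjusted p = 0.000338). The 100 bases before that start (chr2:96305547-96305646, minus strand) hold none of the 6 motifs and are printed because this is the 1 peak of a member that passed the test (2 passed without DMSO replicate 2).
SNRNP200: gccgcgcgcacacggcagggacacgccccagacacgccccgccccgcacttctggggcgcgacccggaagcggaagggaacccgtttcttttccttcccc

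At the start of SNRPD1 the CPM were 55.2, 53.7 and 55.3 in DMSO and 49.0, 47.3 and 49.2 with palbociclib (log2 change -0.17, adjusted p = 0.0693), which does not pass. LSM8 went the other way, from 34.99, 33.9 and 32.3 to 37.3, 36.3 and 35.3 CPM (0.11, adjusted p = 0.403), although its RNA was lower. Of the 15 peaks of members with lower RNA, 13 lay below 0 (86.7%), with a median of -0.092. Among the 8 peaks of members not called in RNA, 5 lay below 0 (62.5%), with a median of -0.041. Over all peaks near a gene start 66.0% lay below 0, with a median of -0.044. A link between the RNA calls and accessibility was not tested. The 2 peaks of members with higher RNA, SF3B1 (-0.12) and PRPF39 (-0.083), lay below 0 as well.

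**Figure D4:**
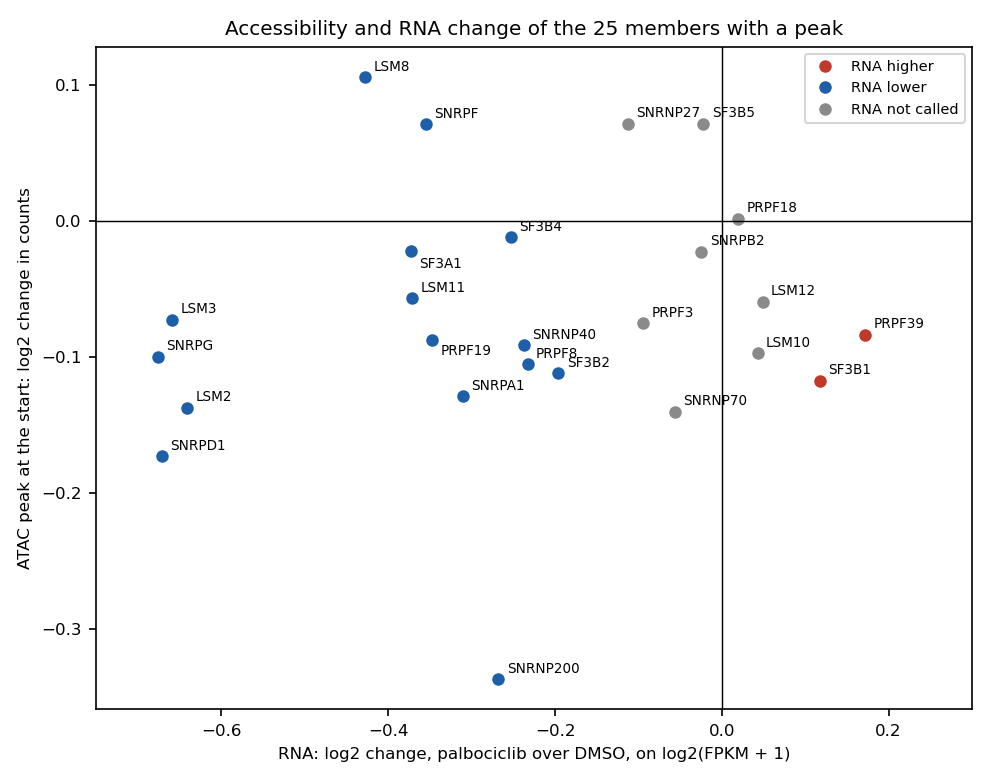
Log2 change in ATAC counts of the peak at the start (y axis) against the log2 change in RNA (x axis, on log2(FPKM + 1)) for the 25 members with a peak, coloured by the RNA call. SNRNP200 at -0.34 is the lowest peak, and the 4 of these genes with the largest RNA falls (SNRPG, SNRPD1, LSM3 and LSM2) have peaks within -0.17 to -0.073.

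The members' own transcripts were also read for splicing. The authors' rMATS tables list 360 events in these genes, with counts of reads for the form that includes a segment and for the form that skips it. Of these, 100 events in 31 genes averaged 20 or more reads per library, with 5% or more of the reads in the rarer form. They were 27 skipped exons, 18 retained introns, 13 alternative 3′ and 4 alternative 5′ splice sites, and 38 pairs listed as mutually exclusive exons. With the edgeR test adjusted within each event type, 7 events in 3 genes had higher inclusion and 0 had lower. Over all 37445 events tested, 0.246% were higher and 0.104% lower. At an unadjusted p under 0.05 there were 13 member events higher and 3 lower, and groups did not overlap in 19, beside 8.53% and 13.8% of all events. The authors' deposited FDR was under 0.05 for 11 member events, beside 3.82% of all events tested. Events of 1 gene that overlap share reads, so the 7 calls stand for 3 places.

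In SF3B1 the 3 called events describe 1 intron, chr2:197418589-197420427 (minus strand), of 1839 bases. The counts of reads for its retention were 961, 1434 and 999 in DMSO and 1930, 1971 and 2154 with palbociclib, while those for its removal were 816, 1126 and 705 and then 887, 936 and 1044. Corrected for length, the retained form made up 5.67%, 6.11% and 6.75% in DMSO and 10.0%, 9.71% and 9.53% with palbociclib (means 6.18% ± 0.54 and 9.75% ± 0.24, SD, n = 3 each; adjusted p = 7.6e-06). Every treated library was above every control library. A longer form of the neighbouring exon (1532 bases more, chr2:197418896-197420427) went from 5.60% ± 0.47 to 9.19% ± 0.26, and an exon of 745 bases inside the intron (chr2:197418896-197419640) from 4.33% ± 0.77 to 7.20% ± 0.27. Both were called (adjusted p = 7.1e-06 and 0.0178), and both share the reads for removal with the retained intron. Their segments also lie inside the intron, so reads within them may be counted for its retention. Retention of the whole intron therefore cannot be told apart from these forms here. The call of the 745 base exon was lost without DMSO replicate 2 (adjusted p = 0.204) or palbociclib replicate 2 (0.150), and with no filter on the rarer form its adjusted p was 0.763 and that of the longer form 0.308.

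In SNRNP70, whose RNA level did not pass the test, 3 forms of an exon with the same first base, 49102114 on chromosome 19, gained inclusion. The longest, of 1474 bases (to 49103587), had 1125, 1542 and 967 reads for inclusion in DMSO and 1810, 2120 and 2224 with palbociclib, beside 1300, 1850 and 1141 and then 1262, 1412 and 1381 for skipping. Its inclusion level was 5.17%, 4.98% and 5.06% in DMSO and 8.28%, 8.63% and 9.20% with palbociclib (adjusted p = 0.000535). The forms of 72 bases (to 49102185) and 60 bases (to 49102173) went from 2.46% ± 0.81 to 5.02% ± 0.77 and from 2.53% ± 0.83 to 4.63% ± 0.69. Their adjusted p were 0.0127 and 0.0497, and both rested on fewer reads, from 33 to 140 for inclusion per library. The call of the 72 base form was lost without DMSO replicate 2 (0.137), DMSO replicate 3 (0.0992) or palbociclib replicate 2 (0.142). That of the 60 base form was lost in 6 of 12 other analyses, among them DESeq2 (0.0872) and leaving out DMSO replicate 2 (0.258), DMSO replicate 3 (0.227), palbociclib replicate 2 (0.256) or palbociclib replicate 3 (0.117). With no filter on the rarer form the adjusted p of all 3 forms was 0.763.

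In PRPF39, an intron of 658 bases (chr14:45096229-45096886) gained inclusion with palbociclib. The form counted as retained was the commoner one in every library. Its level was 60.4%, 64.7% and 59.6% in DMSO and 77.5%, 73.6% and 71.3% with palbociclib (adjusted p = 0.0107). The reads for removal of the intron were few, 74, 80 and 74 and then 43, 58 and 65. A skipped exon of 163 bases inside it (chr14:45096596-45096758) went from 45.3% ± 0.87 to 59.6% ± 6.16 and did not pass (adjusted p = 0.280). Another, of 335 bases (chr14:45096424-45096758), went from 55.6% ± 3.25 to 68.8% ± 4.18 and did not pass either (adjusted p = 0.175). In both exons the groups did not overlap. The FDR in the authors' deposited table was 0.0213 for the exon of 163 bases and 0.0062 for that of 335. These exons share the reads for removal with the intron, and reads within them may be counted for its retention. Retention of the whole intron therefore cannot be told apart from inclusion of the exons here. The call of the intron was lost on leaving out DMSO replicate 1 (adjusted p = 0.0640), DMSO replicate 3 (0.0722) or palbociclib replicate 1 (0.0923), over a range of 0.0035 to 0.0923.

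**Figure D5:**
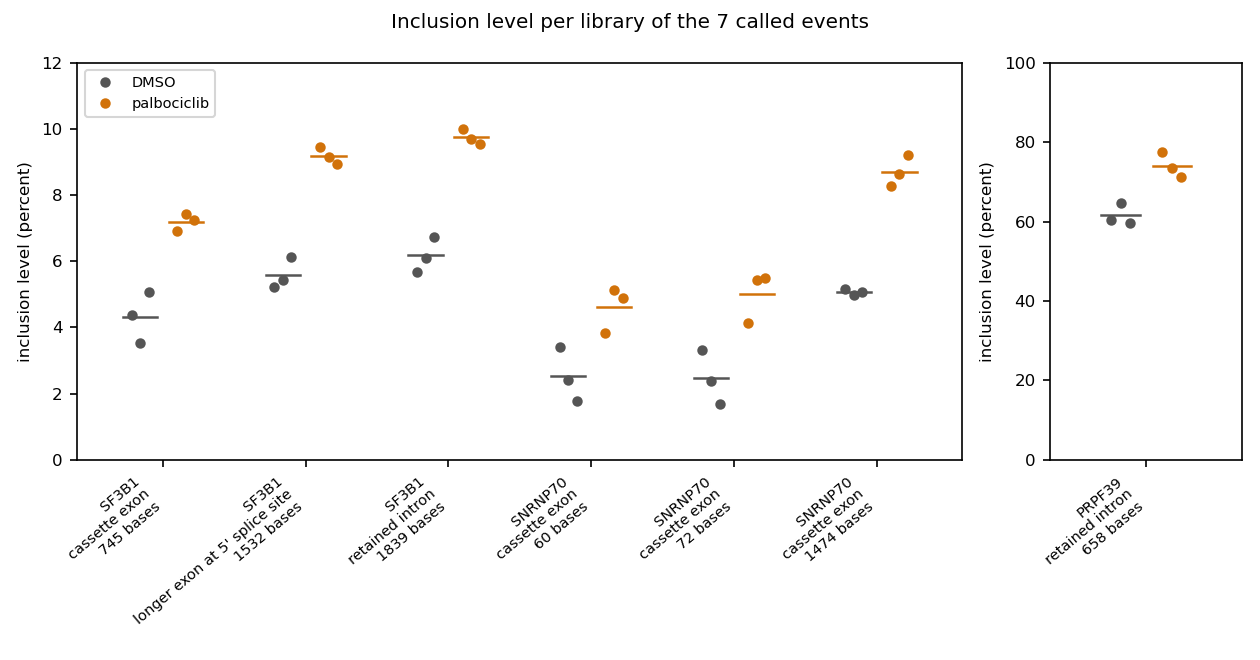
Inclusion level in percent of the 7 called events in each of the 3 DMSO (grey) and 3 palbociclib (orange) libraries, with a line at each mean: SF3B1 and SNRNP70 on the left (axis to 12), PRPF39 on the right (axis to 100). In all 7 the treated libraries lie above every DMSO library, and events of the same gene share reads.

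Other events named by rule did not pass the test, or were not tested. An alternative 3′ splice site in PRPF31 that adds 28 bases (chr19:54126500-54126527) was used at 6.15%, 7.63% and 5.71% in DMSO and at 1.87%, 1.57% and 2.39% with palbociclib. Its groups lay apart, but it rested on 3 to 16 reads for inclusion per library (adjusted p = 0.245, beside an FDR of 0.00853 in the authors' deposited table). Pairs that rMATS lists as mutually exclusive exons in PRPF18 (66.0% ± 1.75 to 61.8% ± 1.84, adjusted p = 0.820) and PRPF3 (49.0% ± 1.15 to 45.7% ± 1.63, adjusted p = 0.837) did not pass either. In other listed events of both genes, 1 exon of the pair flanks the other. These levels therefore need not reflect a choice between the exons. Of mutually exclusive exons of U2AF1, the form that rMATS counts as inclusion was at 96.4% ± 1.19 and 97.3% ± 0.34, the deepest PRPF40B exon at 98.7% ± 0.67 and 99.5% ± 0.65, and the deepest SNRPB exon at 99.9% ± 0.12 and 100.0% ± 0.0. These 3 had under 5% of reads in the rarer form, so they were not tested.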

How the data were processed

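RNA and ATAC libraries were grouped by the labels, 3 per treatment and assay. Gene levels are FPKM deposited by the authors. The submitters' processing notes name fastp, Salmon, STAR and DESeq2 for RNA, and Bowtie2, MACS3 and featureCounts for ATAC, on GRCh38, with no role given for each. FPKM libraries share 1 median ratio to the geometric mean (1.0031), which sets changes against the median gene; their sums ran from 710623 to 773814. The total count of the RNA libraries is not in the FPKM table, and the members' mean normalized counts, a signal value in the authors' deposited table, ran from 532 to 26340. Per the file headers, log2 changes, p-values and a Wald score stand beside them. Splicing tables made by the authors with rMATS hold read counts of both forms and inclusion levels; ATAC values are counts per peak, deposited by the authors over 1 peak set and taken as reads. The counted ATAC alignments are labelled as deduplicated (dedup), and how copies were handled is not stated further.

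RNA was tested with limma 3.58.1 (R 4.3.3) (trend fitted on mean level) after adding 1 FPKM and taking log2, for genes averaging 0.5 FPKM or more. Splicing counts were tested with the edgeR 4.0.16 quasi-likelihood test, separately for each event type, the model holding 1 intercept for every library and the interaction of form and treatment. Peaks were tested with edgeR after TMM scaling and filterByExpr, which removed 0. All p-values are two-sided with Benjamini-Hochberg adjustment, over all genes or peaks, and for splicing over all events of the same type. The RNA, splicing (skipped exons only) and ATAC tests were each tried on simulated data. Gene positions come from RefSeq (GRCh38), promoter windows from RefSeq (GRCh38.p14); strand came from those windows and the splicing tables. Coordinates are 1-based.

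Alternatives were other pseudocounts, filters and scalings, DESeq2 1.42.0 for counts, a replicate block, and leaving out each library. Replicate numbers were not stated to pair libraries. The members and lists were chosen with earlier results of these data known. Named genes were the 8 largest falls and 5 largest rises among called members with a mean of at least 5 FPKM and groups that do not overlap (3 rises qualified), with 12 genes given beforehand. Named events were every called one, the 6 largest differences with at least 50 reads and groups that do not overlap (1 per gene), and 4 given ones. Other members are described in ranges or by particle, and 1 member, kept in the counts and medians, is not reported singly here. Genomic sequence at splice sites was not used here.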

Additional observations from a re-analysis of the deposited data

How the results depend on the processing

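Of the 37 called members, 33 kept their call and direction in each of the up to 13 other analyses run; the exceptions were LSM7, SNRPD3, SF3B1 and PRPF39. Quantile normalization moved the median of the members to -0.20, with 6 higher and 32 lower, and gave 8 higher and 26 lower in the wider list (beside 3 and 35 as reported). Scaling the libraries to the same sum of FPKM moved it to -0.32, with 1 higher and 41 lower (2 and 47 in the wider list). Over all genes tested the 2 scalings gave 4588 higher and 2856 lower, and 2239 higher and 4869 lower, beside 3312 and 3628, with medians of 0.057 and -0.062. Leaving out 1 library at a time gave 1 to 3 members higher, 32 to 34 lower and a median from -0.26 to -0.23. The same gave 2 to 4 genes higher and 27 to 30 lower in the wider list, 4 to 6 splicing events with higher inclusion, and 1 to 2 lower peaks (2 without DMSO replicate 2). Members higher numbered 1 without DMSO replicate 2. Splicing events numbered 4 without DMSO replicate 2, DMSO replicate 3 or palbociclib replicate 2. With no filter on the rarer form, 2 events were called, both retained introns, and the cause was not tested. DESeq2 called 6 events.

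Changes of uncalled members near 0 turned sign. With quantile normalization SF3B5 was at 0.027 and SNRPB2 at 0.0060. With equal sums LSM1 was at -0.041, LSM10 at -0.030, LSM12 at -0.028, PRPF18 at -0.056 and SNRNP35 at -0.019. Leaving out 1 library at a time put PRPF18 between -0.024 and 0.056, SF3B5 between -0.055 and 0.018 and SNRNP35 between -0.0014 and 0.088.

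With the replicate number as a block, the members were 4 higher and 35 lower, which adds SF3B6 (adjusted p = 0.0386) and PRPF6 (0.0470), and events and peaks gave 7 higher and 1 lower. Same-numbered RNA libraries deviated with correlations of 0.106, -0.0051 and 0.088, where differently numbered ones ran from -0.139 to 0.0509. The labels do not say that the numbers pair libraries, so they were not taken as pairs. Some events near 5% inclusion rest on few reads, and intervals cover the spread between 3 libraries, from 1 cell line, only.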
